A study of Rattus norvegicus with 72 samples.

Results

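Ionotropic glutamate receptor subunits were taken from the gene panel by name, as every gene whose symbol begins with Gria, Grik or Grin followed by a digit. The rule found 9 of the 145 genes, of which 6 encode NMDA receptor subunits (Grin1, Grin2a, Grin2b, Grin2c, Grin2d and Grin3a) and 3 encode AMPA or kainate receptor subunits (Gria2, Gria3 and Grik3). Transcripts were measured by microfluidic qRT-PCR in 72 micropunch samples from 40 male Sprague Dawley rats, 39 from the dorsal vagal complex (DVC), a viscerosensory nucleus group of the brainstem, and 33 from the central nucleus of the amygdala (CeA). Rats were killed at ZT3, ZT5 or ZT9, where ZT counts the hours after lights came on, which gave 7, 17 and 15 DVC samples and 7, 14 and 12 CeA samples. All animals were untreated, were kept on a regular light and dark cycle and received an alcohol-free Lieber-DeCarli liquid diet in amounts matched to the calories taken by alcohol-fed rats, so that no group ate chow freely. Punches of both sides of the brain made 1 sample, animals were not pooled, and 32 animals gave both regions.

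Fast excitatory transmission in the brain runs through ionotropic glutamate receptors, which are channels built of several subunits. NMDA receptors need the GluN1 subunit encoded by Grin1, and their GluN2 subunits (Grin2a to Grin2d) set channel kinetics and sensitivity to magnesium, while GluN3A (Grin3a) lowers calcium permeability. AMPA receptors carry most of the fast current, and the edited GluA2 subunit (Gria2) keeps calcium out of them. Kainate receptors, to which GluK3 (Grik3) belongs, act on both sides of the synapse. In the DVC these receptors receive vagal sensory input, and in the CeA they receive cortical, thalamic and other amygdalar input.

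The primers are shown because they set which transcript each assay amplified. They were read from the primer list that accompanies the study and are shown 5′ to 3′ in lower case, with no part capitalized.
Grin1 forward: gcttttgcagccgtgaac
Grin1 reverse: gggctctgctctaccactctt
Grin2a forward: cgtcatggtctccaggagtaa
Grin2a reverse: gaggcactgaagggttcg
Grin2c forward: ggcactcctgcaacttctg
Grin2c reverse: gttctggcagatccctgaga
Grin2d forward: gcagcaatggcactgtgt
Grin2d reverse: cgaacatcatcacccagaca
Grin3a forward: gctttgccgtcactgagact
Grin3a reverse: atgcacaacagcacgaagag
Gria2 forward: gccaaggactcgggaagta
Gria2 reverse: cccccgacaaggatgtaga
Gria3 forward: ttcaacaaaagaatttttcagacg
Gria3 reverse: ccgtcagctgttgttttgg
Grik3 forward: caggtcactcatcgtcacca
Grik3 reverse: tcagacttgcggaacatgac
The list held primers for 8 of the 9 subunits, Grin2b being the other one. The 16 primers were 18 to 24 bases long with a GC content of 29.2% to 61.1%, the Gria3 forward primer being the lowest, and 0 of them were shared between subunits.

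Values are cycle thresholds (CT) after the authors' quantile normalization. A CT that is 1 cycle lower stands for about 2-fold more cDNA, and assays differ in efficiency, so CT was compared between samples and never as a level between genes. Differences below have the sign turned, so that a positive value means more transcript in the CeA than in the DVC, or at the first-named time point. All 9 subunits were measured in nearly every sample. Grin2a, Grin2b, Grin2d, Grin3a and Grik3 had a value in all 39 DVC and 33 CeA samples, Grin1, Grin2c and Gria2 in 39 and 31, and Gria3 in 38 and 30. The missing values of Grin1, Grin2c, Gria2 and Gria3 came mainly from 2 CeA samples, of ZT5 replicate 1 and ZT9 replicate 10. In both, all of the first 72 genes in the deposited order were missing. The labels name no sets of assays, so it was inferred that these 72 genes formed a first set and the other 73 a second. The first set held these 4 subunits, and the second set held the other 5.

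The samples' median CT as deposited ranged from 17.88 to 21.17 cycles in the DVC and from 18.54 to 22.05 in the CeA. The middle sample stood at 18.91 and 20.10, so CeA samples tended to higher CT before normalization. The highest CeA value is that of ZT5 replicate 1, which lacks the first assay set. Less cDNA and lower expression of the panel's genes cannot be told apart here. Among marker genes, the noradrenaline transporter Slc6a2, a mark of the noradrenergic neurons of the DVC, had a value in 38 of 39 DVC samples and in 1 of 33 CeA samples. The GABAergic markers Gad1 and Slc32a1 differed between regions by 0.19 ± 0.12 and 0.23 ± 0.13 cycles (SE, limma adjusted p = 0.140 and 0.106). Rgs9, a gene of striatum-like neurons that was listed as a mark of the CeA, was 0.82 ± 0.13 cycles lower in the CeA (estimate -0.82, limma adjusted p = 6.42e-08), so it went against that label. The glial markers Clu and Fgfr2 differed by 0.48 ± 0.15 and -0.05 ± 0.12 cycles (limma adjusted p = 0.0035 and 0.730). Clu had the same lowest normalized CT, 11.38, and the same median, 12.19, in both regions, so its mean difference is to be read with care. In such punches, fewer cells of a type and less RNA per cell cannot be told apart.

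The first comparison asked how the subunits differ between the 2 regions. Of the 9 subunits, 8 differed when the 3 time points were averaged, 5 of them higher in the CeA (Grin1, Grin2c, Gria2, Gria3 and Grin2b) and 3 higher in the DVC (Grin3a, Grin2a and Grin2d). The sizes ran from 1.53-fold for Grin2b to 3.08-fold for Grin1. Of all genes tested, 70.4% were called in this comparison, 28.9% higher in the CeA and 41.5% lower, so the share of subunits called is to be read against a panel in which most genes differed. The split by direction depends on the scaling: 41 genes were higher and 59 lower in the CeA as deposited, against 9 and 105 without normalization and 11 and 117 with each region normalized alone. The subunits, 5 higher and 3 lower as deposited, became 1 and 4 without normalization and 2 and 4 with each region normalized alone. Grik3 was the subunit without a call, at 0.12 ± 0.20 cycles (SE, limma adjusted p = 0.580) with a 95% interval from -0.27 to 0.52.

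Grin1, the obligatory NMDA receptor subunit, showed the largest difference of the 9. In the DVC its normalized CT had a lowest value of 17.78, a median of 19.03 and a highest value of 20.96 over 39 samples, and in the CeA the values were 16.66, 17.39 and 18.07 over 31 samples. The regions did not overlap at ZT3 or at ZT9, and at ZT5 1 DVC sample, at 17.78, reached into the CeA range. The difference was 1.62 ± 0.11 cycles (SE, limma adjusted p = 6.05e-21), which is 3.08-fold with a 95% interval from 2.63 to 3.61. Grin1 was higher in the CeA in 30 of 30 animals measured in both regions. By size it ranked 15 among all genes tested.

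The 4 GluN2 subunits split by region. Grin2c, which is best known from cerebellar granule cells and glia, had a DVC range from 19.57 to 22.44 with a median of 20.44, against 18.12 to 20.01 with a median of 19.08 in the CeA. It was 1.38 ± 0.12 cycles higher in the CeA (SE, limma adjusted p = 1.17e-16), in 30 of 30 animals, and the regions did not overlap at ZT3. Grin2b, the GluN2 subunit of slow kinetics that prevails in the forebrain, ranged from 19.37 to 23.55 with a median of 21.57 in the DVC and from 19.63 to 22.74 with a median of 21.02 in the CeA. The groups overlapped widely, and the difference of 0.62 ± 0.18 cycles was in the same direction in 26 of 32 animals (SE, limma adjusted p = 0.0020). Grin2a, the GluN2 subunit of faster kinetics, ran the other way, from 18.63 to 20.65 with a median of 19.94 in the DVC and from 19.98 to 22.10 with a median of 20.63 in the CeA. It was 1.81-fold higher in the DVC (estimate -0.85 ± 0.13 cycles, limma adjusted p = 5.42e-08), in 29 of 32 animals. Grin2d, whose channels deactivate slowest and which is prominent in the brainstem and diencephalon, ranged from 17.74 to 21.10 with a median of 19.05 in the DVC and from 18.75 to 20.72 with a median of 19.67 in the CeA. It was 1.62-fold higher in the DVC (estimate -0.70 ± 0.13 cycles, limma adjusted p = 2.71e-06), in 27 of 32 animals.

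Grin3a, which joins GluN1 and GluN2 in receptors that pass less calcium, was also higher in the DVC. Its normalized CT ranged from 17.68 to 19.19 with a median of 18.49 in the DVC and from 18.59 to 21.32 with a median of 19.29 in the CeA. The DVC values were the tightest of any subunit, with an SD of 0.32 cycles within time points. The difference of -0.88 ± 0.11 cycles (SE, limma adjusted p = 7.68e-11), or 1.84-fold, held in 30 of 32 animals, although the regions overlapped at each time point.

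Both AMPA receptor subunits were higher in the CeA and by similar amounts. Gria2 had a DVC range from 17.49 to 19.14 with a median of 18.17 and a CeA range from 16.35 to 18.06 with a median of 16.97. The difference was 1.07 ± 0.10 cycles (SE, limma adjusted p = 5.24e-15), present in 30 of 30 animals, and at ZT3 the regions did not overlap. Gria3 ranged from 19.41 to 21.49 with a median of 20.27 in the DVC and from 18.50 to 20.89 with a median of 19.25 in the CeA. It was 0.97 ± 0.13 cycles higher in the CeA (SE, limma adjusted p = 1.12e-09), in 28 of 29 animals. Grik3, the only kainate receptor subunit of the panel, had almost the same centre in both regions, from 18.54 to 21.85 with a median of 20.89 in the DVC and from 19.35 to 24.08 with a median of 20.54 in the CeA. It was also the most variable subunit of the CeA, with an SD of 0.97 cycles within time points against a median of 0.52 over all genes. Its highest CT, 24.08 in CeA ZT9 replicate 15, lay 3.26 cycles above the group mean and adds to this spread. Within animals Grik3 was higher in the CeA in 18 and in the DVC in 13 of 32.

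**Figure D1:**
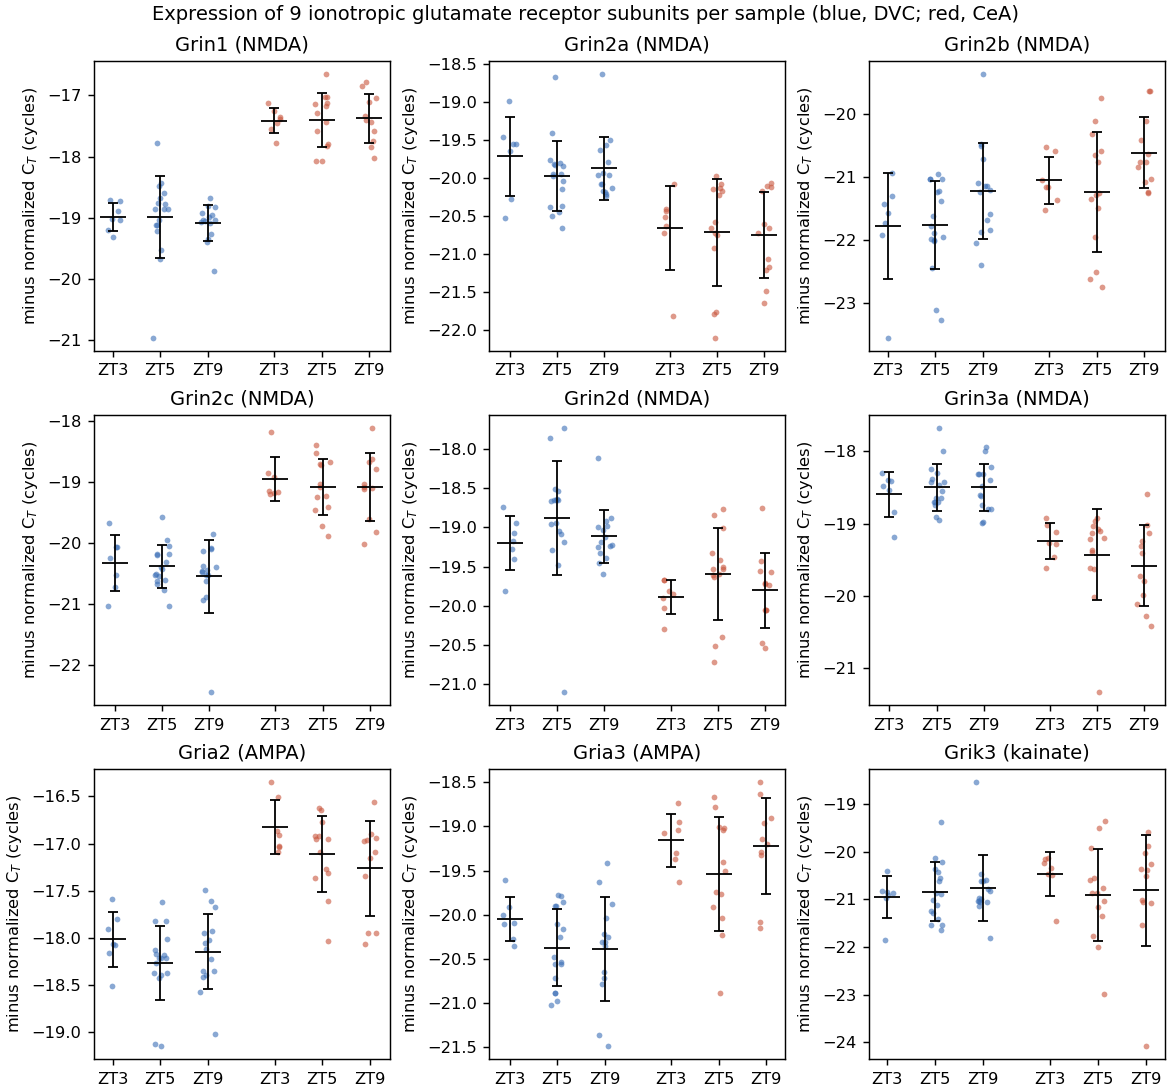
Minus the normalized CT in cycles (vertical axis, higher means more transcript) for each subunit by time point in DVC (blue) and CeA samples (red). Points are single samples, horizontal bars are group means and error bars are 1 SD; the CeA groups lie above the DVC groups for Grin1, Grin2c, Gria2 and Gria3 and below them for Grin2a, Grin2d and Grin3a.

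These region differences were present at each time point. At ZT3, 7 of the 9 subunits were called (45.8% of all genes tested), at ZT5 7 (59.2%) and at ZT9 7 (58.5%). At each of them the uncalled subunits were Grin2b and Grik3, and Grin2b had estimates of 0.72, 0.52 and 0.61 cycles at ZT3, ZT5 and ZT9 with limma adjusted p = 0.125, 0.0793 and 0.0567. The regions did not overlap for 3 subunits at ZT3 (Grin1, Grin2c and Gria2) against 25.7% of all genes, for 0 at ZT5 against 6.9%, and for 1 at ZT9 (Grin1) against 11.8%. An interaction between region and time point was called for 0 of the 9 subunits and for 0% of the genes tested by limma. At an unadjusted p of up to 0.05 it was found for 0 subunits and 15 genes, and the smallest p of a subunit was that of Grin3a, at -0.64 cycles in ZT3 and -1.08 in ZT9 samples (limma unadjusted p = 0.331).

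**Figure D2:**
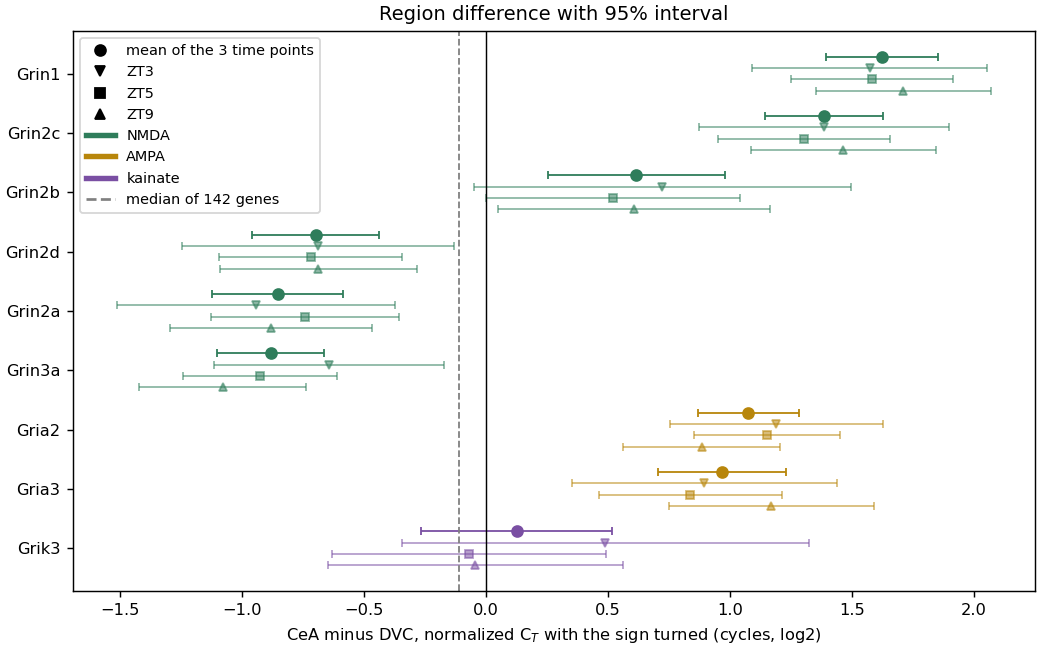
Difference between CeA and DVC in cycles (horizontal axis, positive means more transcript in the CeA) for each subunit, as the mean of the time points (circles) and at ZT3, ZT5 and ZT9 (other markers), with 95% intervals. Colours mark NMDA, AMPA and kainate receptor subunits, and the dashed line is the median of all genes at -0.11; only the intervals of Grik3 hold 0 at every position.

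The NMDA receptor subunits were compared with the AMPA and kainate receptor subunits by counts and medians, without a test, because the 2 classes hold only 6 and 3 genes. All 6 NMDA receptor subunits differed between regions, 3 in each direction, and their median difference was -0.04 cycles with a range from -0.88 to 1.62. Of the AMPA and kainate receptor subunits 2 of 3 differed, both higher in the CeA, and their median difference was 0.97 cycles with a range from 0.12 to 1.07. The median over all genes was -0.11 cycles, and the median size of a difference was 0.88 cycles for the 9 subunits and 0.59 for all genes. The class does not separate from the assay set: both AMPA receptor subunits lay in the first set together with Grin1 and Grin2c, and all 4 were higher in the CeA. Of the 5 subunits in the second set 3 were lower in the CeA, Grin2b was higher and Grik3 was not called. The median difference over all genes was -0.13 cycles in the first set and -0.08 in the second. When samples were centred on their median CT per assay set instead of over all assays, subunits of the first set moved down and those of the second up. Gria2 went from 0.98 to 0.74 cycles and Gria3 from 0.99 to 0.76, while Grin2b went from 0.79 to 1.01 and Grik3 from 0.30 to 0.52. Grin2b then stood above both AMPA receptor subunits, so the size of the class difference depends on how the sets are scaled. Whether the set has a part in the class difference was not tested. The 9 GABA-A receptor subunits of the panel, the inhibitory counterparts, gave 5 calls, 2 higher in the CeA and 3 lower, with a median difference of -0.09 cycles and a range from -3.22 to 3.75.

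Differences between 2 subunits of the same assay set within a sample do not change when all CT of the sample are shifted by the same amount. Quantile normalization can change them, so they were computed from the deposited CT before normalization. Grin2b minus Grin2a was -1.74 ± 0.75 cycles in the DVC (SD, n = 39) and -0.24 ± 0.71 in the CeA (SD, n = 33). The shift from Grin2a towards Grin2b was 1.59 ± 1.12 cycles within animals (SD) and went in this direction in 30 of 32. Grin2b minus Grin2d was -2.62 ± 0.87 cycles in the DVC and -1.14 ± 0.78 in the CeA (SD), and it was higher in the CeA in 32 of 32 animals. Grin2b minus Grin3a likewise moved from -3.14 ± 0.83 to -1.41 ± 0.81 cycles (SD), in 32 of 32 animals. Grin2b thus gained on each of the 3 other NMDA receptor subunits of its set in the CeA, whereas Grin2a and Grin2d kept their distance, with Grin2a minus Grin2d at -0.89 ± 0.60 cycles in the DVC and -0.90 ± 0.76 in the CeA (SD). Only the shift of such a difference between samples is meaningful, since its zero depends on the 2 assays.

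In the first set, Gria2 minus Gria3 was 2.23 ± 0.42 cycles in the DVC (SD, n = 38) and 2.22 ± 0.36 in the CeA (SD, n = 30), and the 2 AMPA receptor subunits moved by the same amount to within a mean of -0.01 ± 0.52 cycles within animals (SD, n = 29). Gria2 minus Grin1 fell from 0.86 ± 0.52 cycles in the DVC to 0.25 ± 0.36 in the CeA (SD), a decrease in 27 of 30 animals. Relative to Gria2, Grin1 was thus higher in the CeA. Grin1 minus Grin2c was 1.44 ± 0.52 and 1.63 ± 0.71 cycles (SD) in the 2 regions, which differed by less than these spreads.

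**Figure D3:**
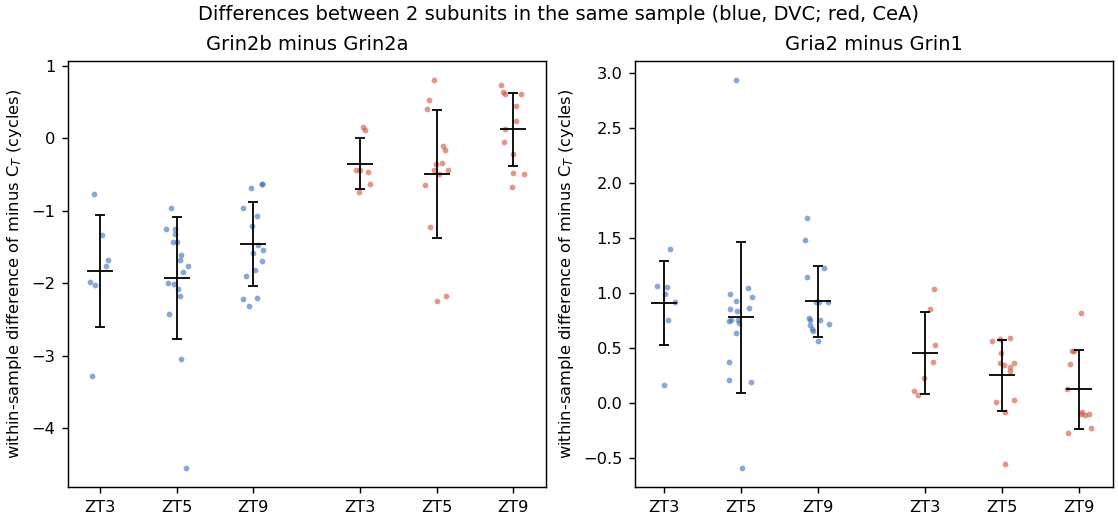
Within-sample differences of the deposited CT, with the sign turned, in cycles (vertical axis) between Grin2b and Grin2a (left) and between Gria2 and Grin1 (right) by time point, for DVC (blue) and CeA samples (red). Points are samples and bars are means with 1 SD; Grin2b minus Grin2a is higher in the CeA than in the DVC and Gria2 minus Grin1 is lower.

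The direction of a region difference depends for some subunits on how the samples are put on a common scale. Without normalization the median gene was 1.10 cycles lower in the CeA (median -1.10) and with quantile normalization of each region alone 1.12 cycles lower (median -1.12), against -0.11 in the deposited normalization. On these 2 scales Gria2, Gria3 and Grin2b had signs opposite to those above, with estimates between -0.26 and -0.0029 cycles that were not called, and Grik3 was called lower in the CeA, at -0.75 and -0.80. Relative to the median gene the subunits kept their signs under all 5 scalings. Subtracting the median removes any shift common to all genes, and such a shift is much of what separates these scalings. The agreement was therefore largely set in advance, and it does not show which scale holds for the direction of a difference. Above the median gene stood Grin1 by 1.42 to 1.73 cycles, Grin2c by 1.23 to 1.50, Gria2 by 0.82 to 1.19, Gria3 by 0.84 to 1.10, Grin2b by 0.73 to 1.09 and Grik3 by 0.24 to 0.60. Below it were Grin3a, between -0.85 and -0.59, Grin2a, between -0.74 and -0.41, and Grin2d, between -0.62 and -0.36.

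**Figure D4:**
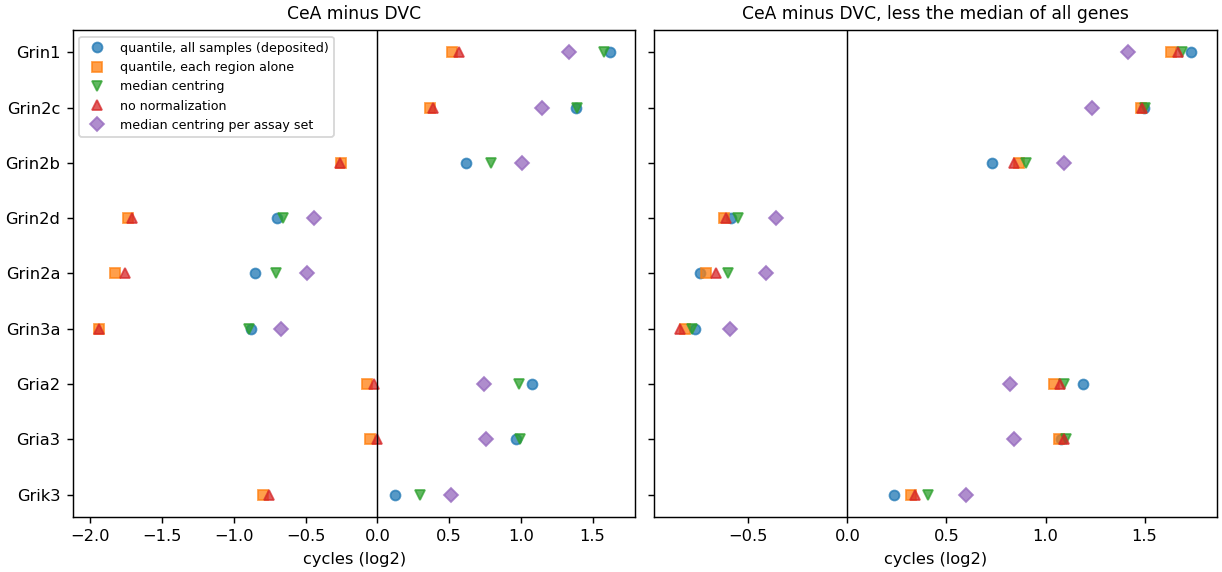
Difference between CeA and DVC in cycles (horizontal axes) of each subunit under 5 ways of scaling the samples, as estimated (left) and after subtraction of the median over all genes (right). On the left Gria2, Gria3 and Grin2b change sign without normalization or with each region normalized alone. On the right, where a shift common to all genes is removed, each subunit stays on its side of 0.

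The animals were split by number into lower- and higher-numbered ones at a cut that was set for this purpose. The numbers show no break at the cut, so the split does not mark known batches. The lower-numbered animals include no ZT3 animals, and the labels do not say what the numbers stand for. Within the lower- and within the higher-numbered animals the 8 called subunits had the same signs. The sizes differed most for Grin2a (-0.56 and -0.96 cycles), Grin3a (-1.24 and -0.74) and Grin2c (0.99 and 1.61), where the second value is that of the higher-numbered animals.

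The second comparison asked whether the subunits change over the 6 h from ZT3 to ZT9. In the DVC 0 of the 9 subunits had a time point effect in limma's F-test (10.3% of all 145 genes did), and in the CeA 0 of 9 (3.52%). At an unadjusted p of up to 0.05 the F-test also found 0 subunits in either region, against 31 and 22 genes. The one-way test of the study's methods found 0 subunits too. Those methods also accept a gene by a t-test between time points or by a mean change beyond a set size. These further criteria were not applied here, so the 0 covers the one-way test only. By pairs of time points, ZT3 against ZT5 gave 0 called subunits in the DVC (5.52% of genes) and 0 in the CeA (1.41%), and ZT9 against ZT5 gave 0 in the DVC (7.59%) and 0 in the CeA (4.93%). Unadjusted, limma put 1 subunit, Grin2b, at a p of up to 0.05 for ZT9 against ZT5 in each region, and 0 for ZT3 against ZT5. For ZT9 against ZT3 it put 1 subunit there, Gria2 in the CeA, at -0.44 ± 0.21 cycles (SE, 95% interval -0.86 to -0.01, limma unadjusted p = 0.0448, adjusted p = 0.556). The SEs of the subunits' differences from ZT5 were 0.12 to 0.43 cycles. In the DVC the 9 estimates had a median size of 0.12 cycles for ZT3 and 0.11 for ZT9 against ZT5, below the 0.19 and 0.20 of all genes, and in the CeA 0.19 and 0.15, against 0.19 and 0.18.

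Grin2b came closest to a change, with the same direction in both regions. In the DVC its normalized CT had a lowest value of 20.95, a median of 21.78 and a highest value of 23.26 at ZT5, and 19.37, 21.20 and 22.40 at ZT9. In the CeA the values were 19.74, 21.27 and 22.74 at ZT5, and 19.63, 20.77 and 21.26 at ZT9. The ZT9 samples were shifted to more transcript, and the groups overlapped in both regions. Over the same contrast in the DVC the glial marker Clu rose by 0.78 ± 0.21 cycles (SE, limma adjusted p = 0.0101). Its median normalized CT was 13.46 at ZT5 and 12.19 at ZT9. All 7 DVC samples of ZT3 lay between 12.17 and 12.20 after quantile normalization, so this difference is also to be read with care. The GABAergic marker Slc32a1, which had a time point effect in the DVC (limma adjusted p = 0.0276), stood at -0.56 ± 0.21 cycles for ZT9 against ZT5 (SE, limma adjusted p = 0.0860). The other glial and GABAergic markers, Fgfr2 and Gad1, stood at 0.14 ± 0.14 and 0.09 ± 0.17 cycles in the DVC (SE, limma adjusted p = 0.6039 and 0.7865). In the CeA Clu and Slc32a1 stood at -0.27 ± 0.23 and -0.22 ± 0.18 cycles, and Fgfr2 and Gad1 at -0.11 ± 0.21 and -0.24 ± 0.18 (SE). The part of these markers in the Grin2b difference was not tested. ZT9 minus ZT5 of Grin2b was 0.54 ± 0.25 cycles in the DVC (SE, 95% interval 0.02 to 1.05, limma unadjusted p = 0.0404, adjusted p = 0.183) and 0.63 ± 0.28 in the CeA (SE, 95% interval 0.07 to 1.19, limma unadjusted p = 0.0296, adjusted p = 0.262). ZT3 was close to ZT5, at -0.01 ± 0.32 and 0.19 ± 0.32 cycles (SE).

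In a fit of both regions together, the time point effect averaged over regions was called for 0 of 9 subunits by limma's F-test (17.6% of genes), and Grin2b had an adjusted p of 0.0511, as the 1 subunit among 40 genes with an unadjusted p of up to 0.05. Its ZT9 minus ZT5 was 0.58 ± 0.19 cycles (SE, limma adjusted p = 0.0389), or 1.50-fold with a 95% interval from 1.15 to 1.95, and it was the 1 subunit called in this contrast (9.15% of genes). This call was lost in limma without DVC ZT9 replicate 12 (0.52, adjusted p = 0.0624) or without CeA ZT5 replicate 1 (0.53, adjusted p = 0.0675), 1 of the 2 samples lacking the first assay set. It was also lost in the higher-numbered animals alone (0.48, limma adjusted p = 0.314) and with a factor for lower- or higher-numbered animals (0.50, limma adjusted p = 0.0726). The call was lost too in samples with under 10% failed reactions (0.53, limma adjusted p = 0.0702). The same held without normalization, where the estimate was larger (0.91, limma adjusted p = 0.0959). Within the lower- and the higher-numbered animals the DVC difference was 0.27 and 0.68 cycles and the CeA difference 0.83 and 0.28 cycles, so its direction was the same in each of the 4. Both fits treat the 2 regions as separate samples, and with the animal as a random block the estimate was 0.59 cycles (limma adjusted p = 0.0477).

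The within-sample ratio moved with it. Grin2b minus Grin2a was -1.93 ± 0.84 cycles at ZT5 and -1.46 ± 0.58 at ZT9 in the DVC (SD), and -0.49 ± 0.89 and 0.12 ± 0.50 in the CeA (SD). The shift was smaller than both SDs in the DVC and lay between the 2 SDs in the CeA, and Grin2a itself changed by 0.10 ± 0.16 and -0.04 ± 0.24 cycles from ZT5 to ZT9 (SE).

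The other subunits gave smaller estimates. Gria2 and Gria3 were highest at ZT3 in both regions, Gria2 by 0.25 ± 0.18 and 0.29 ± 0.20 cycles over ZT5 in the DVC and the CeA (SE), and Gria3 by 0.32 ± 0.21 and 0.38 ± 0.25 (SE). Averaged over regions, ZT3 minus ZT5 was 0.27 ± 0.13 for Gria2 (SE, limma unadjusted p = 0.0467, adjusted p = 0.189) and 0.35 ± 0.17 for Gria3 (SE, limma unadjusted p = 0.0361, adjusted p = 0.166), and 0 of 9 subunits were called in this contrast (10.6% of genes). All ZT3 animals were among the higher-numbered ones, and within those animals the 4 estimates were 0.17 and 0.13 cycles for Gria2 in the DVC and the CeA, and 0.13 and 0.11 for Gria3. Grin2d was lowest at ZT3 in both regions, by -0.32 ± 0.24 and -0.29 ± 0.23 cycles against ZT5 (SE), and by -0.45 and -0.43 within the higher-numbered animals. Grin1 was the flattest of the subunits, with no estimate against ZT5 beyond 0.11 cycles in size.

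**Figure D5:**
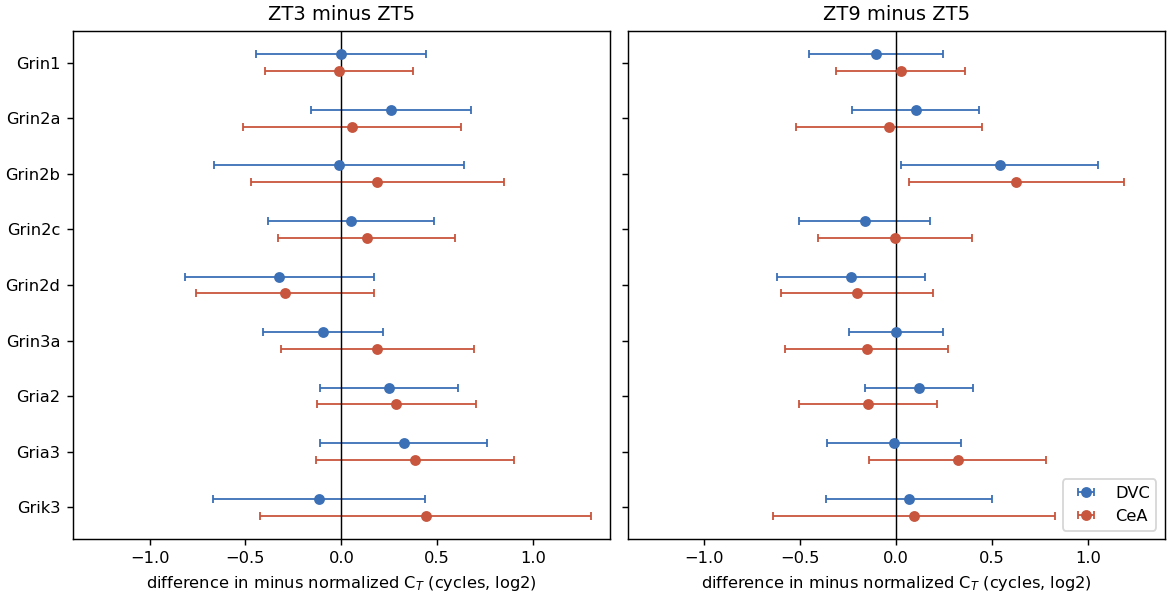
Differences of ZT3 (left) and ZT9 (right) from ZT5 in cycles (horizontal axes, positive means more transcript than at ZT5) for each subunit in the DVC (blue) and the CeA (red), with 95% intervals from limma. The intervals hold 0 except for those of Grin2b at ZT9, which start at 0.02 and 0.07.

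The methods of the study compare the time courses of the 2 regions by an alignment score, which grows as the angle between the 2 regions' vectors of 3 mean CT values shrinks. The 9 subunits had a median score of 5.04, against 4.52 for the 144 genes with a value in all 6 groups and 4.47 for the GABA-A receptor subunits. Grin2d had the highest score of all genes, at 6.30, and Grin2c, Grin1, Grin2b and Grin2a followed at ranks 24, 25, 28 and 32. Gria3, Gria2, Grin3a and Grik3 had scores between 4.12 and 4.57 with Gria3 at rank 64, Gria2 at rank 76, Grin3a at rank 93 and Grik3 the lowest of the 9. A high score also arises where neither region changes, as for Grin1. By direction, ZT3 minus ZT5 had the same sign in both regions for 6 of 9 subunits, against 66.9% of genes. ZT9 minus ZT5 did so for 5 of 9, against 50.7%. By this count the subunits were close to the whole panel.

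Genes that follow a subunit from animal to animal were sought by the mean of its 2 correlations, 1 per region, after the time point means were subtracted. Gria2 and Gria3 were most alike each other, with r = 0.66 in the DVC (38 samples) and 0.79 in the CeA (30 samples). For Grin1 the nearest gene was the protein kinase C gene Prkce (mean r = 0.52), for Grin2a the potassium channel gene Kcna2 (0.54), for Grin2b and for Grik3 the cholecystokinin receptor gene Cckbr (0.49 and 0.63), for Grin2c the scaffold gene Slc9a3r1 (0.66), for Grin2d the dynactin gene Dctn1 (0.64, with 19 DVC samples), and for Grin3a the scaffold gene Mpdz (0.56). Each of these partners was in the same inferred assay set as its subunit, so the pairs may share a chip as well as a sample. The correlations are given as a description.

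Of 9 other genes of glutamate receptor signalling in the panel, 8 differed between regions, where 70.4% of all genes did. Higher in the CeA were 5, namely Ptk2b, a calcium-sensitive tyrosine kinase (4.54 ± 0.11 cycles, SE), Itpr1, a calcium release channel (2.10 ± 0.13), Plcb1, a phospholipase C (1.44 ± 0.11), Grm5, the metabotropic receptor mGluR5 (0.84 ± 0.14), and Homer2, a scaffold of mGluR5 (0.46 ± 0.12). Lower in the CeA were 3, namely Rasgrf2, a calcium-dependent Ras exchange factor (-1.31 ± 0.19), the scaffold Mpdz (-1.06 ± 0.24) and the presynaptic adhesion gene Nrxn3 (-0.72 ± 0.14). Itpr3 was not called (0.04 ± 0.23, limma adjusted p = 0.897). Grm5 and Homer2 changed sign without normalization, to -0.22 and -0.53, and with each region normalized alone, to -0.20 and -0.51, and the reversed difference of Homer2 was itself called (limma adjusted p = 0.0410 and 8.75e-05). On these 2 scales Plcb1 lost its call (0.26 and 0.21, limma adjusted p = 0.2213 and 0.0704). Itpr3 was called lower in the CeA with each region normalized alone (-0.50, limma adjusted p = 0.0384). Mpdz lost its call with median centring per assay set (-0.40, limma adjusted p = 0.0588). Within a region limma's F-test called a time point effect for 0 of these genes, and for 0 at an unadjusted p of up to 0.05, where 10.3% (DVC) and 3.52% (CeA) of the panel were called. Averaged over regions Grm5 was lower at ZT9 than at ZT5, by -0.46 ± 0.15 cycles (SE, limma adjusted p = 0.0315), opposite to Grin2b, and Plcb1 was higher at ZT3 than at ZT5, by 0.42 ± 0.15 (SE, limma adjusted p = 0.0446). The Grm5 call was lost without normalization (-0.13, limma adjusted p = 0.769) and with median centring (-0.45, limma adjusted p = 0.0697). It was also lost without CeA ZT9 replicate 15 (-0.41, limma adjusted p = 0.0551). The Plcb1 call was lost in the higher-numbered animals alone (0.40, limma adjusted p = 0.118) and with a factor for lower- or higher-numbered animals (0.34, limma adjusted p = 0.181). Median centring over all assays (limma adjusted p = 0.0730) or per assay set (0.31, limma adjusted p = 0.108) also ended it. It was lost as well without any of 10 single samples (limma adjusted p = 0.0576 to 0.110) and with the animal as a random block (limma adjusted p = 0.0576).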

How the data were processed

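RNA from DVC and CeA micropunches was reverse transcribed and 145 genes were measured by microfluidic qRT-PCR. The authors deposited CT values from the instrument software, on the log2 scale of cycles, with failed reactions missing, and the same values after their quantile normalization, also log2; quantile normalization of all 72 samples with limma returned the latter to within 4.99e-09 cycles. A deposited table of the authors' own time point means and differences was not used. DVC samples are labelled NTS in the non-normalized values and were joined by animal number. Precision is limited by the number of animals and by failed reactions (0 to 9 per sample, apart from 74 and 78 in 2 CeA samples); RNA amounts are not part of the values.

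Differences were estimated per gene by least squares with limma's moderated variances (limma 3.58.1, R 4.3.3), by an F-test of time within each region and by a model of the 6 groups, for genes with at least 2 values per group, and p-values were Benjamini-Hochberg adjusted over all genes at a threshold of 0.05. Python 3.11.15 with pandas 2.3.3 and matplotlib 3.10.9 gave the descriptions. The procedures were tested on simulated data. All subunits were named; other genes were named if they were markers, the most alike gene of a subunit, or members of the signalling list as Grm5 or with a call. The subunits, lists and tests were chosen with earlier results of these data known. Within a time point a replicate number marks 1 animal in both regions, and deviations of its 2 samples correlated with a median r of 0.14 (32 pairs, -0.38 to 0.46); across time points equal numbers are different animals. Alternatives were other normalizations, fewer samples or animals, a replicate block, the methods' one-way test and left-out samples. The fit over both regions, centring per assay set and leaving out 4 far samples were added after seeing the data. For Grin3a, the deposited gene identifier was not found in the RefSeq rat table (GRCr8), while the other 8 matched. The signalling list also held NMD3A_RAT, another name for Grin3a, which was counted with the subunits.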

Additional observations from a re-analysis of the deposited data

Results flagged for a closer look

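In groups of 7 to 10 samples, the gap between the farthest sample and its nearest neighbour was tested against the whole range for 19 combinations of subunit and group, and 5 stood apart, where chance gives about 1 in 20. Of the 19 combinations 18 were ZT3 groups and 1 was Gria3 in the CeA at ZT9, since larger groups were not examined, so that the 5 are ZT3 samples says nothing about the other time points. In the CeA, replicate 6 had a normalized CT of 21.81 for Grin2a, against 20.08 to 20.72 in the other samples, and of 18.18 for Grin2c, against 18.85 to 19.20. Replicate 7, the same animal in both regions, had 23.55 for Grin2b in the DVC (others 20.93 to 21.91) and 21.85 for Grik3 in the DVC (others 20.41 to 20.97) and 21.44 for Grik3 in the CeA (others 20.13 to 20.49). Its 2 samples also had the highest deposited median CT among the ZT3 samples of their region. The values were 20.52 in the DVC (others up to 19.03) and 20.76 in the CeA (others up to 20.53). When single ZT3 samples were left out, the count of subunits with a region difference averaged over time points was 8 in each case, and the count at ZT3 was 6 to 7. In the larger groups, which this rule did not cover, single samples also lay far from their group mean CT. DVC ZT5 replicate 3 was at 4.03 SD for Grin1 and 4.04 SD for Grin2d. DVC ZT9 replicate 12 was at 3.97 SD for Grin2c and -3.58 SD for Grik3. The highest or lowest DVC values given above for these subunits are those of these samples.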

How the results depend on the processing

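The averaged count of 8 subunits with a region difference fell to 5 without normalization, and was 4 of the 5 subunits with a value in every sample. The count at ZT3 fell from 7 to 3 without normalization and to 3 with each region normalized alone, and without normalization the counts at ZT5 and ZT9 fell to 4 and 3. Without normalization Gria2, Gria3 and Grin2b reversed, to -0.0224, -0.0029 and -0.2587 cycles, and with each region normalized alone, to -0.0731, -0.0492 and -0.2505; both scales move the median gene by about 1 cycle. On them Grm5 became -0.2236 and -0.1956, and Homer2 -0.5299 and -0.5136. Grin2c lost its call without normalization (0.39, limma adjusted p = 0.0672), and centring per assay set called Grik3 higher in the CeA (0.52, limma adjusted p = 0.0053). The count of subunits with a time point effect over both regions was 0, and 1 (Grin2b) without normalization, where its ZT9 minus ZT5 call was lost, and with centring per assay set; over left-out samples it was 0 to 1. With the replicate block the region counts were 8 averaged and 7, 7 and 8 by time point, and the time point effect counts 0, with consensus correlations of -0.02 to 0.08. Over single samples left out (all ZT3 samples and 4 far ones), the averaged region count was 8, that at ZT3 was 6 to 7 and those at ZT5 and ZT9 were 7 to 8. Within a region, Grin2b differences of 0.54 and 0.63 cycles were not called at these sample numbers.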
